A study of Rattus norvegicus with 24 samples.

Results

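This section follows the change from early adulthood to old age in rat cardiac fibroblasts kept at the lower of the study's glucose levels. It compares 3 RNA sequencing libraries of cells from animals of 20 months with 3 libraries of cells from animals of 10-13 weeks, all after 24 hours in 5.5 mM glucose. These 6 libraries were chosen by their count columns and labels alone, and they are 6 of the 24 libraries in the series, which also covers animals of 0-3 days and 3-4 weeks and a parallel arm in 33 mM glucose. Per the labels the cells were primary cultures maintained in DMEM with 10% fetal bovine serum and antibiotics and plated in six-well plates before the 24 hours in glucose. The labels give no strain, sex, passage number or time in culture, no genetic change and no treatment beside glucose, and they do not say whether the 3 libraries of an age came from separate animals. The gene p-values therefore rest on the spread between libraries within a group, estimated over all 24 libraries, and this spread may be technical. At both ages, libraries with the same number in 5.5 and 33 mM glucose deviated together from their group means. The fit treats them as independent, so its p-values may be too small. A difference in passage or preparation between the ages cannot be told apart from age.

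Cardiac fibroblasts make and remodel the matrix of the heart and divide when placed in culture with serum. Cells that age or divide many times can leave the cell cycle for good, a state called senescence, in which the inhibitors encoded by Cdkn2a, Cdkn2b and Cdkn1a block cyclin-dependent kinases. The retinoblastoma family then stays active and keeps E2F and the MuvB complex from switching on the genes of DNA replication and mitosis, and the lysosomal compartment of such cells is often enlarged.

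The 6 libraries held 19005882 to 24654286 counts and 15329 to 15738 genes with a count. Levels are given as CPM, counts relative to the size of the library after scaling by the trimmed mean of M values. Libraries of one age correlated at 0.985 to 0.988 over log2 CPM and libraries of different ages at 0.952 to 0.964, and the first principal component, with 65.2% of the variance, separated the ages. Replicate 3 of 10-13 weeks stood apart from the other libraries of its age on the second component, which held 10.8%. Fibroblast markers summed to 48135 to 51691 CPM at 10-13 weeks and 29852 to 33785 CPM at 20 months, so the groups did not overlap, and 7 of 11 fell and 1 rose. Col1a2, a defining fibroblast collagen, is listed at 0 in all 6 libraries. The defining cardiomyocyte genes Myh6, Myl2, Myl7 and Ckm were at 0 in all 6. Myh7, Actc1, Myl3, Nppa, Ryr2, Mb and Csrp3 were under 0.1 CPM on average at both ages. All cardiomyocyte markers together summed to 622 to 685 CPM at 10-13 weeks and 474 to 566 CPM at 20 months. Almost all of this sum came from the remaining members of the list, so it does not measure cardiomyocyte content. No erythroid marker had a count. Macrophage and leukocyte markers summed to 107 to 174 CPM at 10-13 weeks and 93.1 to 213 CPM at 20 months, endothelial markers to 29.6 to 43.7 CPM at 10-13 weeks and 20.2 to 24.5 CPM at 20 months, Schwann cell markers to 22.9 to 27.1 CPM at 10-13 weeks and 63.2 to 75.6 CPM at 20 months, smooth muscle and pericyte markers to 352 to 419 CPM at 10-13 weeks and 351 to 600.2 CPM at 20 months, epicardial markers to 121 to 148 CPM at 10-13 weeks and 121 to 229 CPM at 20 months, and adipocyte markers to 241 to 432 CPM at 10-13 weeks and 498 to 664 CPM at 20 months, of which Lpl made up most. Lymphocyte markers summed to 1.32 CPM at most. With 3 libraries against 3 the exact permutation test of a sum (two-sided) cannot go below 0.1. That value was reached for fibroblasts, cardiomyocytes, endothelium, Schwann cells and adipocytes. Fewer cells of a type and less RNA per cell cannot be told apart in such sums, and the part of other cells in the results below was not tested.

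Of 13806 genes tested with the quasi-likelihood test of edgeR, 4985 had an adjusted p (Benjamini-Hochberg) under 0.05 and are termed called, which is 36.1% of all genes. Of these, 2478 were higher at 20 months (17.9%) and 2507 lower (18.2%), and 1412 (10.2%) changed more than 2 fold, 4.86% upwards and 5.37% downwards. The median log2 change over all genes tested was 0.0082. A fit to the 6 libraries alone, which holds no same-numbered libraries of the other glucose level, called 4421 of 12934 genes. These shares are the background for every count of list members that follows, since a list with about this share of members called in each direction stands where all genes stand. In 4765 of the called genes no library of one age reached the other age, and over all genes tested 47.7% had groups that did not overlap. The lists that follow were chosen with results of these data known, so their counts are set beside these shares without a test of the list. Each count is over the members that passed the low-count filter, which leaves out any member too low in every group. A member that is near 0 at one age can pass because it is higher at another. Among genes of low level the counts therefore depend in part on the filter.

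**Figure D1:**
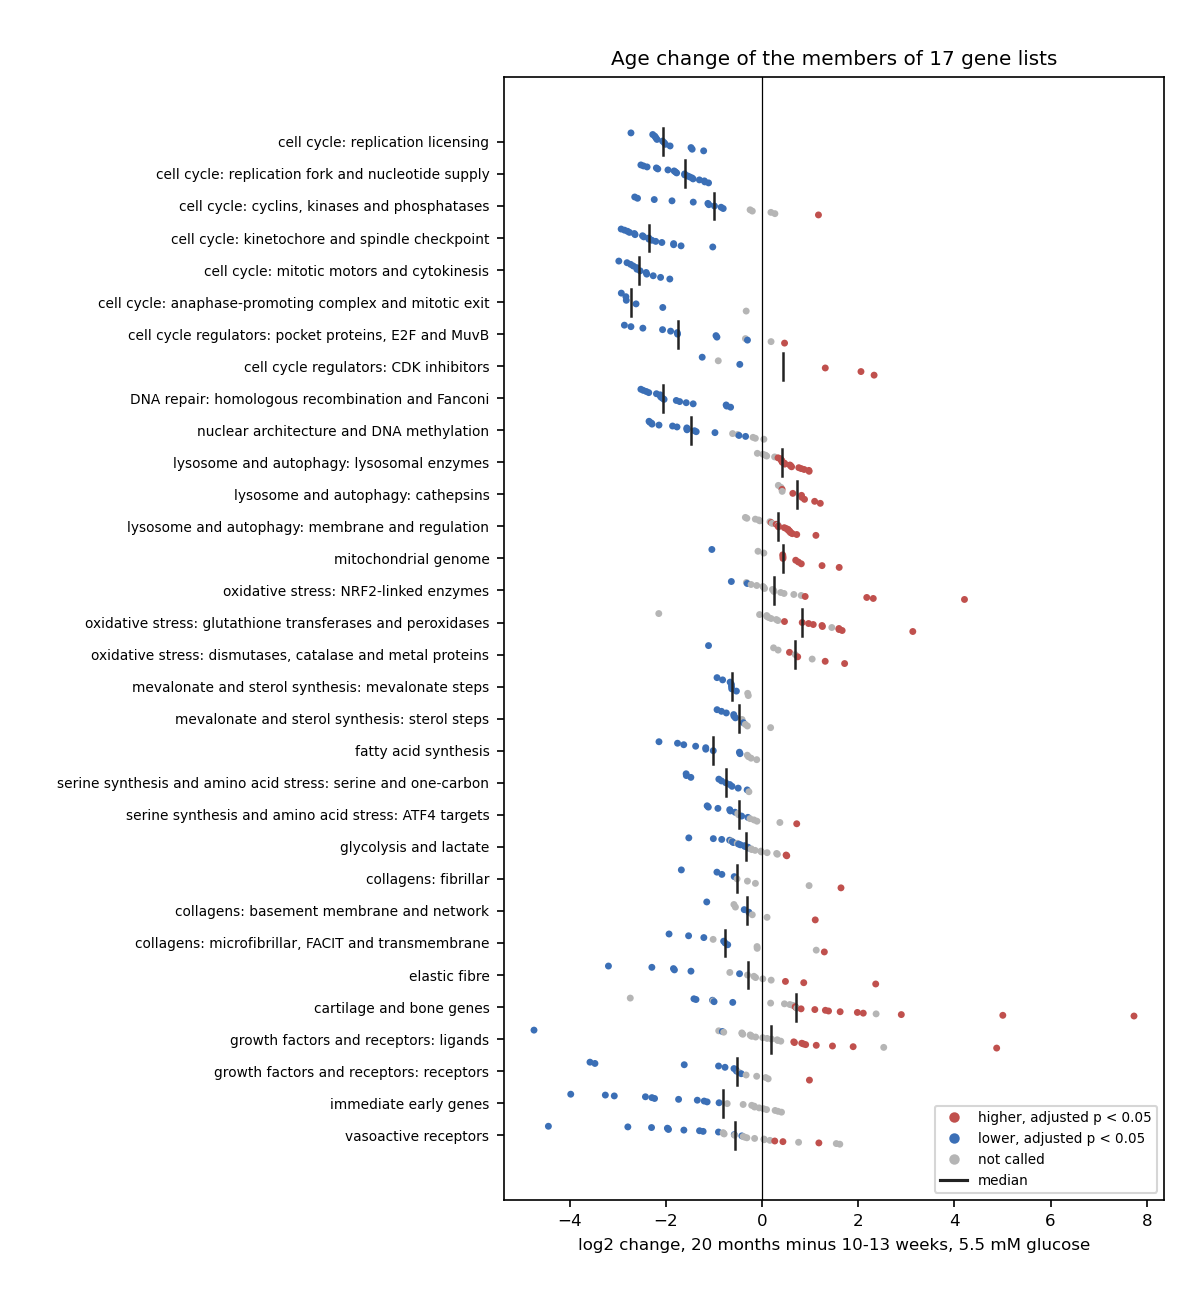
Log2 change between 10-13 weeks and 20 months in 5.5 mM glucose (x axis) for each tested member of 17 gene lists (rows, several lists being split by role), red for genes called higher, blue for genes called lower and grey for genes not called, with the list's median as a bar. The rows of replication, mitosis and DNA repair lie left of 0 except Ccnd1, Ccnd2 and Ccnd3 in the cyclin row, and every called point of the lysosome rows lies right of it.

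Of 81 cell cycle genes 75 fell and 1 rose, with a median log2 change of -2.08. Of 82 genes listed 81 were matched in the table, and all of these passed the low-count filter. All 12 genes that license origins fell (median -2.05), as did all 19 genes of the replication fork and nucleotide supply (median -1.61), all 17 of the kinetochore and spindle checkpoint (median -2.35) and all 12 mitotic motor and cytokinesis genes (median -2.57). Of 6 genes of the anaphase-promoting complex and mitotic exit 5 fell, the exception being Fzr1, the activator that works in G1 (log2 change -0.33).

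Mcm7, a subunit of the replicative helicase (ENSRNOG00000001349, chromosome 12, 19306607 to 19314016, Rnor_6.0), was at 82.9, 99.6 and 127 CPM at 10-13 weeks and 17.6, 31.5 and 24.6 CPM at 20 months (log2 change -2.07 ± 0.38 SE, adjusted p = 0.000519). Cdc45, the helicase's activator, was at 15.7, 25.5 and 34.6 CPM at 10-13 weeks and 4.43, 5.63 and 3.71 CPM at 20 months (log2 change -2.46 ± 0.44 SE, adjusted p = 0.000419). Tyms, which makes the thymidylate that DNA synthesis uses, was at 34.4, 38.9 and 45.1 CPM at 10-13 weeks and 16.8, 18.8 and 15.9 CPM at 20 months (log2 change -1.199 ± 0.21 SE, adjusted p = 0.000344). In none of these genes did a library of one age reach the other age, and replicate 2 of 20 months was the highest of its group in Mcm7. Ttk, the kinase Mps1 of the spindle checkpoint (ENSRNOG00000029055, chromosome 8, 91368111 to 91405993, Rnor_6.0), was at 28.3, 27.9 and 29.9 CPM at 10-13 weeks and 2.90, 5.77 and 3.20 CPM at 20 months (log2 change -2.86 ± 0.58 SE, adjusted p = 0.00107). Top2a, the topoisomerase that untangles chromosomes (ENSRNOG00000053047, chromosome 10, 86901007 to 86932154, Rnor_6.0), was at 143, 155 and 125 CPM at 10-13 weeks and 12.99, 32.2 and 15.4 CPM at 20 months (log2 change -2.81 ± 0.64 SE, adjusted p = 0.00234). Cdc20, the mitotic activator of the anaphase-promoting complex (ENSRNOG00000028415, chromosome 5, 137260728 to 137264931, Rnor_6.0), was at 82.2, 56.0 and 39.2 CPM at 10-13 weeks and 5.61, 10.3 and 7.47 CPM at 20 months (log2 change -2.93 ± 0.60 SE, adjusted p = 0.00117). The lowest 10-13 weeks library of Cdc20 still stood well above the highest one of 20 months.

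Cyclins, their kinases and phosphatases were less uniform, with 10 of 15 lower. The mitotic cyclin Ccnb1 fell by 2.65 on the log2 scale, Ccna2 by 2.59 and Ccne2 by 1.87. The D cyclins, which link growth factors to the start of the cycle, did not follow. Ccnd2 was at 50.4, 62.8 and 53.5 CPM at 10-13 weeks and 116, 99.8 and 160.2 CPM at 20 months, higher in each old library than in any young one (log2 change 1.17 ± 0.22 SE, adjusted p = 0.000473). Ccnd1 and Ccnd3 had log2 changes of 0.27 and 0.18, and their partners Cdk4 and Cdk6 of -0.20 and -0.25, none of them called. Ccna2, Ccne2 and Cdk4 overlap Exosc9, Ints8 and Tspan31 on the opposite strand, so their reads may be shared.

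The promoters of 3 of these mitotic genes are shown because they carry both sequence elements through which the MuvB complex and NF-Y are known to act on late cell cycle genes. The sequences are RefSeq's on the build GRCr8, which is not the build of the deposited table, and each runs from 250 bases before to 50 bases after the annotated start, 5′ to 3′ along the gene. Capitals mark CCAAT (or ATTGG, its reverse complement) and the cell cycle homology region TTTGAA or TTCGAA (reverse complement TTCAAA or TTCGAA). Ttk lies at chr8:93634389-93634688, plus strand, Top2a at chr10:84473044-84473343, minus strand, and Cdc20 at chr5:137255750-137256049, minus strand.
Ttk: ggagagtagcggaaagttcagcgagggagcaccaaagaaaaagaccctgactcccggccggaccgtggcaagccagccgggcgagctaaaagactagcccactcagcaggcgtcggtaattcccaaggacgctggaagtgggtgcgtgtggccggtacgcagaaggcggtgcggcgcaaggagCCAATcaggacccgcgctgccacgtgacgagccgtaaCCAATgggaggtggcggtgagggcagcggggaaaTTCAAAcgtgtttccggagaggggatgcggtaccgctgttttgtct
Top2a: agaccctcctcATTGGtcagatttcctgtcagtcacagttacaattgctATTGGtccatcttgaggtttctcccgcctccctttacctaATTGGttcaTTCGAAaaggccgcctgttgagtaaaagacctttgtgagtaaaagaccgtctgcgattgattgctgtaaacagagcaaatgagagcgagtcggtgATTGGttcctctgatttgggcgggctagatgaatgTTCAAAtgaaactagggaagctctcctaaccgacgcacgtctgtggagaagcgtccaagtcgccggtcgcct
Cdc20: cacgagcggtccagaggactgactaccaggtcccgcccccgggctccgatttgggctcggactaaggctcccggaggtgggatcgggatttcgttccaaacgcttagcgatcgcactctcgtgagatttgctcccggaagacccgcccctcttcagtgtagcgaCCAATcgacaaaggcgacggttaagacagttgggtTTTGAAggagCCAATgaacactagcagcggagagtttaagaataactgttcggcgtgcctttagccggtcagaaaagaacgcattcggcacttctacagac
Promoters were given for 65 of 81 cell cycle genes. Of these, 45 (69.2%) held CCAAT on either strand, against 37.7% of all 27457 promoters. The homology region stood in 29 (44.6%) against 19.5%, and both together in 23 (35.4%) against 7.83%. All 23 genes with both were among those that fell, but so were 62 of all 65 with a promoter. A link between these elements and the fall was not tested. The letters describe the sequence and show no binding.

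Among the regulators of cell cycle transcription, 10 of 13 pocket protein, E2F and MuvB genes fell and 1 rose (median -1.76). Mybl2, the B-Myb that joins MuvB in proliferating cells, was at 52.2, 59.9 and 51.5 CPM at 10-13 weeks and 4.33, 11.6 and 6.52 CPM at 20 months (log2 change -2.86 ± 0.55 SE, adjusted p = 0.000656). The activator E2f1 changed by -1.90, the repressors E2f7 and E2f8 by -2.48 and -2.73, the mitotic factor Foxm1 by -2.07 and the pocket protein Rbl1, or p107, by -1.76 on the log2 scale. Rbl2, the p130 of the resting cell's repressor complex, was the member that rose (log2 change 0.47 at adjusted p = 0.00852), from 37.7 to 52.2 CPM. Rb1 had a log2 change of 0.19 and was not called, and Lpar6, which lies within it on the other strand, could share its reads.

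The inhibitors of cyclin-dependent kinases split by gene. Of 6 tested, 3 rose and 2 fell. Cdkn2a (ENSRNOG00000059837, chromosome 5, 107823330 to 107841175, Rnor_6.0), whose locus encodes p16 and Arf from shared exons, was at 7.93, 5.67 and 5.52 CPM at 10-13 weeks and 30.6, 18.8 and 30.3 CPM at 20 months (log2 change 2.06 ± 0.20 SE, adjusted p = 7.4e-07), and counts per gene do not separate the products. Cdkn2b, the neighbouring p15 gene, was at 44.9, 31.9 and 9.43 CPM at 10-13 weeks and 146, 98.9 and 189 CPM at 20 months (log2 change 2.33 ± 0.50 SE, adjusted p = 0.00155), with replicate 3 of 10-13 weeks far below the others. Cdkn1a, or p21, was at 56.7, 128 and 64.7 CPM at 10-13 weeks and 192, 204 and 224 CPM at 20 months (log2 change 1.31 ± 0.33 SE, adjusted p = 0.00441). In all 3 genes the groups did not overlap. Cdkn2c, or p18, fell from 10.04 to 4.23 CPM (log2 change -1.24 at adjusted p = 0.0109) and Cdkn1b, or p27, from 40.5 to 29.4 CPM (log2 change -0.46 at adjusted p = 0.0348).

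Fas, the death receptor, was at 9.22, 10.1 and 10.2 CPM at 10-13 weeks and 25.8, 22.0 and 25.7 CPM at 20 months (log2 change 1.32 ± 0.18 SE, adjusted p = 2.24e-05), and no old library came near a young one. Gadd45a, a stress sensor, changed by 1.22 and Ccng1, cyclin G1, by 0.91. Fas had the highest log2 change of 20 tested targets of p53, of which 7 rose, 3 fell and 10 were not called. The median of this list was 0.32 and its lowest log2 change -1.48. Without replicate 1 of 10-13 weeks 4 were called higher and 1 lower, and without replicate 2 of 20 months 5 and 0.

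**Figure D2:**
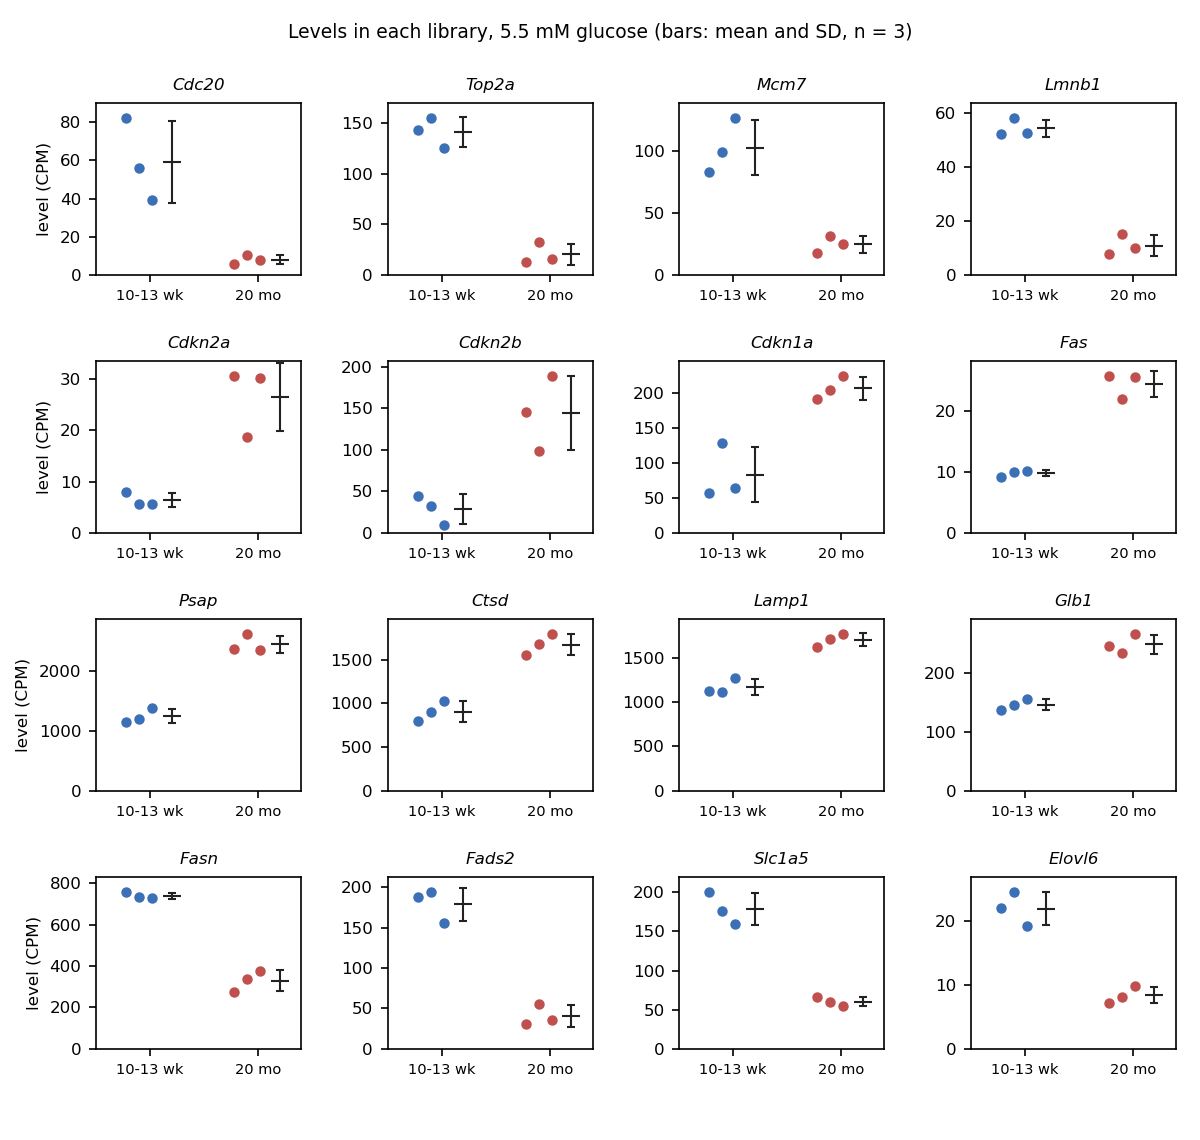
CPM levels (y axes, from 0) of 16 genes in each of the 3 libraries of 10-13 weeks (blue) and of 20 months (red) in 5.5 mM glucose, with the mean and SD of each age as bars. In every panel the 3 old libraries lie on one side of the 3 young ones, below them for Cdc20, Top2a, Mcm7, Lmnb1, Fasn, Fads2, Slc1a5 and Elovl6 and above them for the other 8.

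DNA repair and chromatin assembly genes fell with the replication genes. All 17 tested genes of homologous recombination and the Fanconi pathway fell, with a median log2 change of -2.07 against 0.0082 for all genes. Fancd2, which is loaded onto DNA at crosslinks, was at 29.8, 28.6 and 33.3 CPM at 10-13 weeks and 5.32, 8.34 and 4.28 CPM at 20 months (log2 change -2.36 ± 0.45 SE, adjusted p = 0.000671), with no overlap. Brca1 and Brca2 changed by -2.04 and -1.58. The smallest changes of the list were those of the damage kinases Atm (-0.75), Atr (-0.65) and Chek2 (-0.73).

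Of 20 genes of nuclear architecture, histones and DNA methylation 15 fell and none rose (median -1.48). Lmnb1, the lamin B1 that lines the nuclear envelope (ENSRNOG00000013774, chromosome 18, 51785111 to 51822264, Rnor_6.0), was at 52.3, 58.1 and 52.8 CPM at 10-13 weeks and 7.58, 15.1 and 9.72 CPM at 20 months (log2 change -2.33 ± 0.53 SE, adjusted p = 0.00223). Dnmt1, the maintenance methyltransferase, was at 156, 173 and 192 CPM at 10-13 weeks and 48.0, 66.7 and 62.0 CPM at 20 months (log2 change -1.56 ± 0.28 SE, adjusted p = 0.000396), and Uhrf1, which brings it to replicated DNA, at 74.2, 95.6 and 109 CPM at 10-13 weeks and 13.2, 24.2 and 17.2 CPM at 20 months (log2 change -2.35 ± 0.43 SE, adjusted p = 0.000432). All 3 were lower in each old library. Lbr, the lamin B receptor, changed by -1.37, the H3K9 methyltransferase Suv39h2 by -2.29 and the Polycomb methyltransferase Ezh2 by -1.56. Lmna, the A-type lamin, stayed at a high level and was not called (log2 change -0.14), nor were the high-mobility-group genes Hmga1 (-0.61) and Hmga2 (-0.50).

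Genes of the lysosome went the other way. Of 53 genes of lysosomes and autophagy, among 56 listed, 37 rose and 0 fell, and the median log2 change was 0.42. Of 21 hydrolases and their activators 16 rose, as did 7 of 10 cathepsins and 14 of 22 membrane and regulatory genes. The changes were smaller than those of the cell cycle: the highest in the list was 1.21 and 3 of the genes that rose did so by more than 2 fold.

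Psap, the precursor of the saposins that present lipids to lysosomal enzymes (ENSRNOG00000000571, chromosome 20, 29831314 to 29856875, Rnor_6.0), was at 1157, 1205 and 1383 CPM at 10-13 weeks and 2376, 2615 and 2359 CPM at 20 months (log2 change 0.97 ± 0.094 SE, adjusted p = 6.6e-07). Glb1, the acid beta-galactosidase used as a stain for senescent cells (ENSRNOG00000010196, chromosome 8, 122439328 to 122511939, Rnor_6.0), was at 138, 146 and 156 CPM at 10-13 weeks and 247, 234 and 266 CPM at 20 months (log2 change 0.76 ± 0.085 SE, adjusted p = 2.96e-06). Fuca1, a fucosidase, was at 145, 132 and 149.8 CPM at 10-13 weeks and 274, 253 and 258 CPM at 20 months (log2 change 0.88 ± 0.10 SE, adjusted p = 3.08e-06). These genes were higher in each old library than in any young one. The acid ceramidase Asah1 changed by 0.98, the glycogen-degrading Gaa by 0.60 and Hexa by 0.61, while Neu1, Gusb, Arsa, Sgsh and Ids were not called, with log2 changes of -0.10 to 0.26. Pcm1 overlaps Asah1 on the opposite strand, and the sources used here do not say whether the counts used strand.

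Among the proteases of the compartment, Ctsb, cathepsin B (ENSRNOG00000010331, chromosome 15, 46316741 to 46337612, Rnor_6.0), was at 848, 948 and 941 CPM at 10-13 weeks and 1902, 1833 and 2107 CPM at 20 months (log2 change 1.09 ± 0.10 SE, adjusted p = 3.47e-07). Ctsd, the aspartyl cathepsin (ENSRNOG00000020206, chromosome 1, 215541542 to 215553451, Rnor_6.0), was at 794, 897 and 1025 CPM at 10-13 weeks and 1548, 1672 and 1788 CPM at 20 months (log2 change 0.88 ± 0.13 SE, adjusted p = 4.61e-05). Ctsl was at 803, 1027 and 1203 CPM at 10-13 weeks and 1643, 1885 and 1830 CPM at 20 months (log2 change 0.82 ± 0.12 SE, adjusted p = 5.52e-05). The ages did not overlap in any of the 3. Ctsc and Lgmn changed by 1.21 and 0.64, and the leukocyte cathepsin Ctss, at 2.19 to 2.94 CPM, was not called. By the deposited FPKM, which scale for gene length, Ctsb went from 460.4 to 958 and Ctsd from 438 to 789, so both are abundant beside Glb1, which went from 50.8 to 84.2 FPKM.

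In the membrane, Lamp1, the main glycoprotein of the lysosomal limiting membrane (ENSRNOG00000019629, chromosome 16, 81689590 to 81706561, Rnor_6.0), was at 1124, 1112 and 1272 CPM at 10-13 weeks and 1621, 1718 and 1765 CPM at 20 months (log2 change 0.54 ± 0.088 SE, adjusted p = 0.000139). Gabarapl1, which coats autophagosomes, was at 62.7, 58.4 and 56.9 CPM at 10-13 weeks and 118, 133 and 136 CPM at 20 months (log2 change 1.12 ± 0.10 SE, adjusted p = 1.63e-07). Atp6ap1, an accessory subunit of the proton pump, was at 298, 325 and 369 CPM at 10-13 weeks and 487, 497 and 551 CPM at 20 months (log2 change 0.63 ± 0.088 SE, adjusted p = 3.35e-05). Lamp2 changed by 0.72, the calcium channel Mcoln1 by 0.46, the autophagosome protein Map1lc3b by 0.54 and the cargo receptor Sqstm1 by 0.34. The transcription factors that act on this compartment were not called, with log2 changes of -0.35 for Tfeb, -0.14 for Tfe3 and 0.33 for Mitf, nor were the autophagy initiators Ulk1 (0.21), Atg5 (-0.047) and Atg7 (-0.069). Macrophages are rich in lysosomes, and their marker sum overlapped between the ages, with Cd68 at 6.42 ± 0.808 to 8.10 ± 2.08 CPM and not called. Within that list of 18 genes C1qb, Adgre1 and Mpeg1 rose, none above 4.03 CPM on average, 1 fell and 14 were not called. The part of macrophages in the lysosomal change was not tested.

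**Figure D3:**
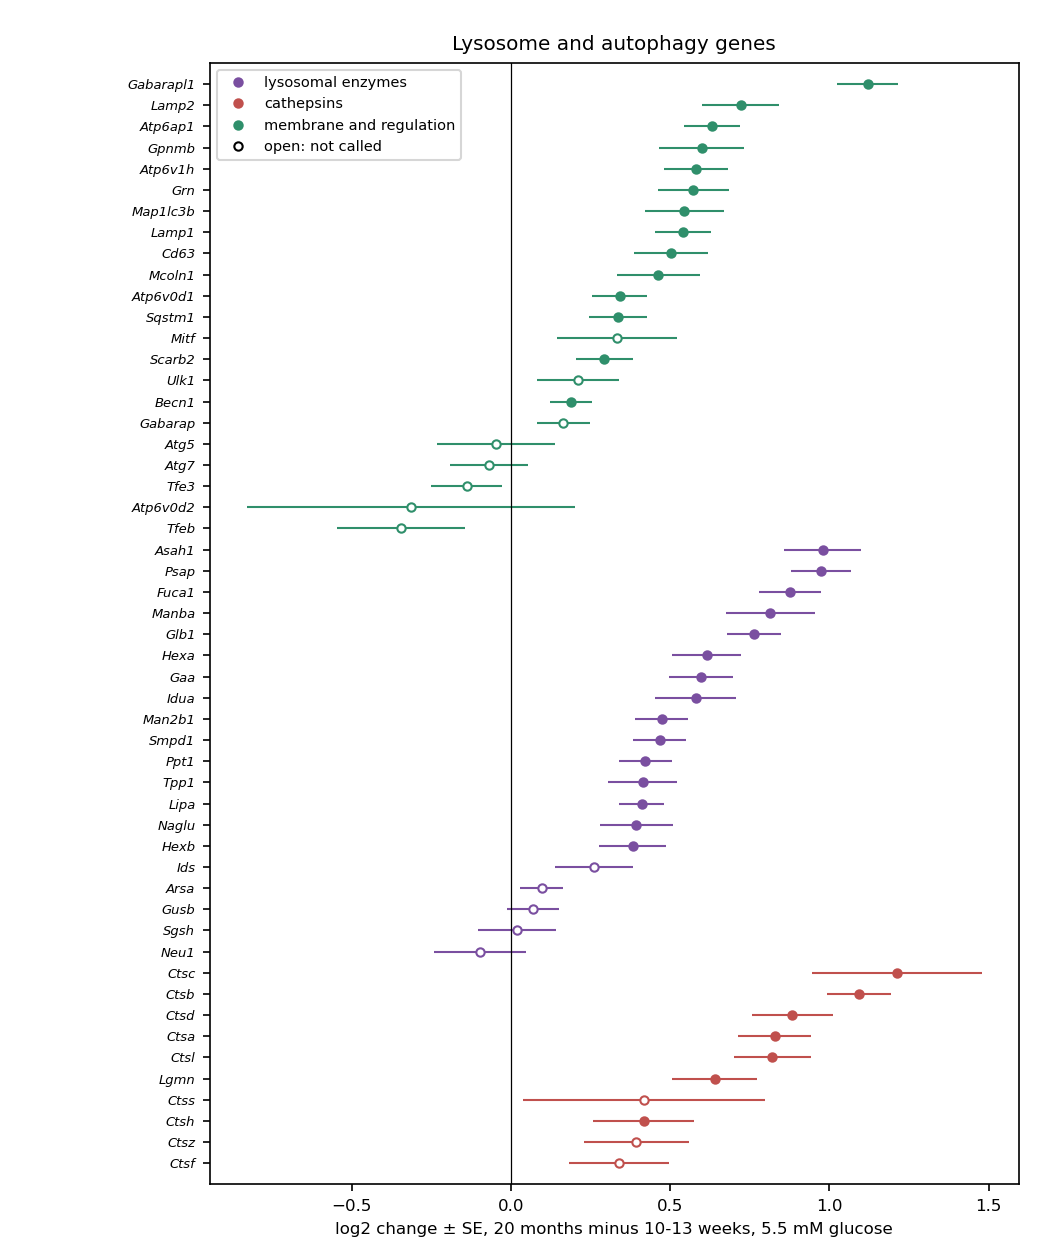
Log2 change with its SE (x axis) of all but 1 of the 53 tested lysosome and autophagy genes (rows), coloured by role, with open points for genes not called. The filled points all lie above 0, and Tfeb, at -0.35, is the lowest point of all.

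The promoters of Lamp1 and Ctsd are shown with the E-box TCACGTGA, the letters in capitals, which is known as the core of the element read by TFEB. This motif was searched after the values of the list had been seen. On GRCr8 the Lamp1 window is chr16:83075014-83075313, minus strand, and that of Ctsd is chr1:206968772-206969071, minus strand.
Lamp1: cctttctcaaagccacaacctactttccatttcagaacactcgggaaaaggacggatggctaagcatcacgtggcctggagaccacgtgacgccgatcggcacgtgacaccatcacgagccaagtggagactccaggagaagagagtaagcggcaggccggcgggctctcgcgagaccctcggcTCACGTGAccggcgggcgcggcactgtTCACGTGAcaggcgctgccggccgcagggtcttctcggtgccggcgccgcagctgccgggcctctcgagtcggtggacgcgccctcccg
Ctsd: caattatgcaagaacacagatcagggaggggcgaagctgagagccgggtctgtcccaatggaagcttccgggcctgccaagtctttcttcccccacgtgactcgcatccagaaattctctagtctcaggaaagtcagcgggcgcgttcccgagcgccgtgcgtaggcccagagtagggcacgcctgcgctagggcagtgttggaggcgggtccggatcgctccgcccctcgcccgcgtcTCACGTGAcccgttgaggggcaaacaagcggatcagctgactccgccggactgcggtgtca
The palindrome stood in 4 of 42 lysosome and autophagy promoters (9.52%), those of Lamp1, Ctsd, Mcoln1 and Atp6v0d1, against 0.867% of all promoters. All 4 genes were among those that rose, but so were 28 of all 42 with a promoter. A link between this motif and the rise was not tested.

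Genes of lipid synthesis fell in both of its branches. In the mevalonate pathway 7 of 9 genes fell (median -0.63) and in the sterol steps after it 7 of 12 (median -0.48), and none rose. Without replicate 1 of 20 months 8 of these 21 genes were called lower. Hmgcs1, the synthase of the mevalonate pathway, was at 378, 387 and 402 CPM at 10-13 weeks and 205, 217 and 315 CPM at 20 months (log2 change -0.66 ± 0.19 SE, adjusted p = 0.0118), lower in every old library.

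Regulation and transport of sterols moved in both directions. The transcription factors Srebf1 and Srebf2 changed by -0.74 and -0.46 and their retention factor Insig1 by -1.06, and Srebf1 overlaps Rai1 on the opposite strand. Npc2, the carrier that moves cholesterol out of lysosomes, was at 371, 401 and 463 CPM at 10-13 weeks and 1066, 979.9 and 1194 CPM at 20 months (log2 change 1.39 ± 0.14 SE, adjusted p = 1.06e-06), while its partner Npc1 was not called (log2 change 0.16). Of 6 genes of sterol efflux none was called, Abca1 among them at 126, 77.4 and 99.2 CPM at 10-13 weeks and 119, 93.3 and 78.6 CPM at 20 months (log2 change -0.061).

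Genes of fatty acid synthesis fell further. Of 13 genes 9 fell and none rose (median -1.01). Fasn, fatty acid synthase, was at 756, 734 and 730.0 CPM at 10-13 weeks and 274, 339 and 374 CPM at 20 months (log2 change -1.17 ± 0.14 SE, adjusted p = 5.7e-06), Fads2, the first desaturase of polyunsaturated fatty acids, at 188, 193 and 156 CPM at 10-13 weeks and 30.7, 55.3 and 35.6 CPM at 20 months (log2 change -2.14 ± 0.25 SE, adjusted p = 9.13e-06) and the elongase Elovl6 at 22.0, 24.5 and 19.3 CPM at 10-13 weeks and 7.23, 8.15 and 9.80 CPM at 20 months (log2 change -1.38 ± 0.20 SE, adjusted p = 3.84e-05). No old library of these reached a young one. Fads1, Scd1 and Scd2, which are desaturases as well, changed by -1.76, -1.63 and -1.17, and the citrate lyase Acly by -0.47.

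None of the 16 sterol synthesis promoters, 9 fatty acid synthesis promoters or 13 promoters of sterol regulation held the sterol regulatory letters TCACNCCAC on either strand, which 1.13% of all promoters held. CCAAT stood in 13 of 16 sterol synthesis promoters (81.2%, against 37.7% of all). That of Hmgcs1 is shown as the example, with its CCAAT boxes, both as ATTGG, in capitals. On GRCr8 it lies at chr2:53382054-53382353, plus strand.
Hmgcs1: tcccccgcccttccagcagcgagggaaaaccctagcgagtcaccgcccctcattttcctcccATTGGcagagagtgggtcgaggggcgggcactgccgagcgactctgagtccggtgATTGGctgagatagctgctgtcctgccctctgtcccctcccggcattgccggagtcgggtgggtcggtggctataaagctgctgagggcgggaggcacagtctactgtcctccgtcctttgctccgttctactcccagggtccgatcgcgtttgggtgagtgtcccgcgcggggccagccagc

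Of 11 genes that supply serine and one-carbon units, which feed nucleotide synthesis, 10 fell (median -0.75). Slc1a5, a glutamine transporter, was at 199.96, 177 and 159 CPM at 10-13 weeks and 66, 59.4 and 54.8 CPM at 20 months (log2 change -1.57 ± 0.15 SE, adjusted p = 4.04e-07). Mthfd1l, of the mitochondrial folate pathway, was at 81.5, 78.9 and 63.8 CPM at 10-13 weeks and 27.3, 26.2 and 26.9 CPM at 20 months (log2 change -1.48 ± 0.21 SE, adjusted p = 5.35e-05). Both were lower in all old libraries. Phgdh, the first enzyme of serine synthesis, changed by -0.84 and Shmt2, the mitochondrial serine hydroxymethyltransferase, by -0.90. Of 15 targets of the stress factor ATF4 8 fell and 1 rose, and Atf4 itself changed by -0.29. The count of lower genes over both subgroups was 11 in place of 18 without replicate 1 of 10-13 weeks or without replicate 3 of 20 months. The unfolded protein response moved little, with 4 of 21 genes lower (2 without replicate 3 of 10-13 weeks), none higher and a median of -0.11.

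In glycolysis 12 of 24 genes fell and 2 rose (median -0.32), of which 1 was called without replicate 3 of 10-13 weeks. The phosphofructokinase genes went different ways. Pfkp was at 224, 223 and 203 CPM at 10-13 weeks and 153, 139 and 132 CPM at 20 months (log2 change -0.62 ± 0.066 SE, adjusted p = 1.94e-06) and Pfkl changed by -0.84, whereas the muscle form Pfkm rose from 37.9 to 53.5 CPM (log2 change 0.50 at adjusted p = 0.0141). Ldhb, the heart form of lactate dehydrogenase, rose from 30.2 to 43.2 CPM (log2 change 0.51 at adjusted p = 0.00205), and Ldha was not called (log2 change -0.23). Slc16a3, which exports lactate, changed by -1.52.

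Mitochondrial transcripts took 3.17% to 3.64% of counts at 10-13 weeks and 4.44% to 4.88% at 20 months (exact permutation test, two-sided, p = 0.1, the smallest that 3 against 3 allows). Mt-co2, a subunit of cytochrome oxidase, was at 2422, 2459 and 2903 CPM at 10-13 weeks and 4839.7, 4418 and 4448 CPM at 20 months (log2 change 0.82 ± 0.088 SE, adjusted p = 2.1e-06). Mt-atp6 and Mt-atp8 overlap on one strand, so their counts are not independent. Mt-nd6, the protein gene of the light strand, fell (log2 change -1.04 at adjusted p = 0.0105), and it overlaps Mt-nd5, which rose (log2 change 0.44 at adjusted p = 0.00226). Of 36 nuclear genes of the respiratory chain 9 were higher and 1 lower (median 0.10), beside 17.9% higher and 18.2% lower of all genes. The number higher was 4 without replicate 1 of either age. It was 5 without replicate 2 of 10-13 weeks or replicate 3 of 20 months. Tfam, which packs and transcribes mitochondrial DNA, was at 29.4, 29.9 and 30.6 CPM at 10-13 weeks and 17.9, 18.5 and 19.5 CPM at 20 months (log2 change -0.69 ± 0.088 SE, adjusted p = 1.44e-05). It was one of 5 genes of mitochondrial biogenesis that fell among 13, with Polg (-0.53), Lonp1 (-0.69), Nrf1 (-0.39) and Ppargc1b (-1.21), and none rose.

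Genes of detoxification rose in part. Of 19 glutathione transferases and peroxidases 10 rose and none fell (median 0.84). Mgst1, a membrane-bound transferase, was at 16.0, 12.4 and 14.4 CPM at 10-13 weeks and 42.2, 44.9 and 42.4 CPM at 20 months (log2 change 1.60 ± 0.13 SE, adjusted p = 1.21e-07). Gstp1 was at 222, 200.3 and 194 CPM at 10-13 weeks and 395, 446 and 447 CPM at 20 months (log2 change 1.06 ± 0.11 SE, adjusted p = 1.11e-06) and Gpx1, the main cytosolic glutathione peroxidase, at 64.8, 60.8 and 62.8 CPM at 10-13 weeks and 183, 109.6 and 157 CPM at 20 months (log2 change 1.26 ± 0.16 SE, adjusted p = 1.65e-05). The groups were apart in these genes. Gsta1, Gsta2 and Gsta4 changed by 1.60, 3.13 and 1.67, but these close paralogs may share reads. Fth1, the ferritin heavy chain that stores iron, was at 497, 515 and 568 CPM at 10-13 weeks and 1464, 1636 and 2093 CPM at 20 months (log2 change 1.72 ± 0.14 SE, adjusted p = 9.94e-08), and Tfrc, the receptor that brings iron in, at 189, 232 and 194 CPM at 10-13 weeks and 79.7, 114 and 91.1 CPM at 20 months (log2 change -1.11 ± 0.14 SE, adjusted p = 1.29e-05), so the pair moved apart. Cat, catalase, and Sod3, the extracellular dismutase, changed by 0.74 and 1.31.

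Of 19 enzymes linked to the factor NRF2 4 rose, namely Nqo1, Ephx1, Taldo1 and Aldh3a1, and 2 fell. Ephx1, the microsomal epoxide hydrolase, was at 15.1, 16.5 and 13.8 CPM at 10-13 weeks and 70.6, 45.5 and 89.2 CPM at 20 months (log2 change 2.18 ± 0.25 SE, adjusted p = 5.72e-06). Aldh3a1, an aldehyde dehydrogenase, was at 3.42, 4.66 and 0.104 CPM at 10-13 weeks and 26.4, 90.7 and 34.1 CPM at 20 months (log2 change 4.21 ± 0.69 SE, adjusted p = 0.000181), apart but with wide spread within each age. The commonly used targets Hmox1 (0.46), Srxn1 (0.22), Txnrd1 (0.39), Gclc (-0.32) and Gclm (-0.23) were not called, nor was Nfe2l2, which encodes NRF2 (0.052). The antioxidant response letters TGACNNNGC stood in 14 of 41 promoters of the whole oxidative stress list (34.1%, against 12.2% of all), and in 3 of the 12 whose genes rose.

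Matrix genes changed in both directions. Of 28 collagen genes 13 fell and 3 rose (median -0.54), and 11 more did not pass the filter. The chains of collagen VI, which forms beaded filaments around cells, fell unevenly, with Col6a3 at 3604, 2418 and 2278 CPM at 10-13 weeks and 841, 439 and 893 CPM at 20 months (log2 change -1.93 ± 0.31 SE, adjusted p = 0.000144) and Col6a1 and Col6a2 at log2 changes of -0.71 and -0.80. Col12a1, a collagen on fibril surfaces, was at 2092, 2342 and 2139 CPM at 10-13 weeks and 718, 928 and 634 CPM at 20 months (log2 change -1.53 ± 0.16 SE, adjusted p = 1.51e-06). Col8a1, a network collagen, was at 817, 846 and 868 CPM at 10-13 weeks and 1566, 1662 and 2219 CPM at 20 months (log2 change 1.11 ± 0.16 SE, adjusted p = 6.39e-05), and Col11a1, a minor fibrillar chain that is prominent in cartilage, at 132, 158 and 134 CPM at 10-13 weeks and 453, 344 and 526 CPM at 20 months (log2 change 1.64 ± 0.35 SE, adjusted p = 0.00149). So the first pair was lower and the second pair higher in all old libraries. Col5a2 and Col14a1 were abundant and not called (-0.14 and -0.10). Of 23 enzymes and chaperones of collagen 6 fell and 1 rose, among them the crosslinking oxidases Lox (-1.16), Loxl2 (-0.84) and Loxl4 (-1.13) and the collagen chaperone Serpinh1 (-0.46), while the hydroxylases Plod1, Plod2 and Plod3 had log2 changes of 0.0019 to 0.17 and were not called.

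In the elastic fibre 6 of 15 genes fell and 3 rose. Eln, the elastin core, was at 601, 166 and 526 CPM at 10-13 weeks and 44.0, 65.1 and 32.3 CPM at 20 months (log2 change -3.19 ± 0.57 SE, adjusted p = 0.000401). Ltbp4, which elastin assembly needs, was at 82.6, 43.7 and 90.1 CPM at 10-13 weeks and 15.1, 29.4 and 16.8 CPM at 20 months (log2 change -1.82 ± 0.29 SE, adjusted p = 0.000162), and Mfap5, a microfibril glycoprotein, at 223, 279 and 284 CPM at 10-13 weeks and 93.1, 123 and 65.9 CPM at 20 months (log2 change -1.48 ± 0.25 SE, adjusted p = 0.000281). Emilin2 and Fbln1 changed by -1.84 and -2.29. Against these, Efemp1, or fibulin-3, rose from 2.49 to 12.9 CPM (log2 change 2.36 at adjusted p = 0.00695) and the latent TGF-beta binding protein Ltbp2 from 2499 to 4558 CPM (log2 change 0.87 at adjusted p = 0.00192). Fibulin-5 and fibulin-2, Fbln5 and Fbln2, were not called (-0.30 and -0.13).

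Genes better known from cartilage and bone rose in 12 of 26, with 17.9% of all genes higher, and 5 fell (median 0.70), while 10 more were below the filter. Acan, the cartilage proteoglycan aggrecan, was at 0.0518, 0.428 and 0 CPM at 10-13 weeks and 23.4, 41.0 and 40.1 CPM at 20 months (log2 change 7.73 ± 0.80 SE, adjusted p = 2.21e-06). Spp1, osteopontin, was at 33.4, 44.8 and 39.3 CPM at 10-13 weeks and 1051, 1188 and 1536 CPM at 20 months (log2 change 5.01 ± 0.40 SE, adjusted p = 1.33e-07), Mgp, the matrix Gla protein that inhibits mineral, at 804, 888 and 1369.9 CPM at 10-13 weeks and 3469, 4214 and 5484 CPM at 20 months (log2 change 2.10 ± 0.49 SE, adjusted p = 0.00264), and Prg4, the joint lubricant lubricin, at 3.68, 4.17 and 3.02 CPM at 10-13 weeks and 20.2, 32.3 and 28.5 CPM at 20 months (log2 change 2.90 ± 0.63 SE, adjusted p = 0.00172). Each was higher in all old libraries. Alpl, the mineralizing phosphatase, changed by 1.98, Sox6 by 1.62 and Sox5 by 0.69, but the regulators Sox9 (0.47) and Runx2 (0.18) were not called and Runx1 fell (-0.61). The number called lower was 0 without replicate 1 of 10-13 weeks, 2 without replicate 2 of 20 months and 3 without replicate 2 or 3 of 10-13 weeks or replicate 3 of 20 months.

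Of the hyaluronan synthases Has1 fell, from 2.64 to 0.213 CPM (log2 change -3.57 at adjusted p = 6.36e-05), and Has2 (-0.39) and Has3 (0.25) were not called. The small proteoglycan Lum, or lumican, was at 145, 136 and 175 CPM at 10-13 weeks and 26.1, 47.0 and 16.9 CPM at 20 months (log2 change -2.34 ± 0.51 SE, adjusted p = 0.00179) and the large one Vcan, versican, at 1269, 1439 and 1227 CPM at 10-13 weeks and 633, 689.8 and 493 CPM at 20 months (log2 change -1.12 ± 0.13 SE, adjusted p = 6.39e-06). Both were lower throughout, whereas Bgn was not called (-0.11). Among adhesive glycoproteins Lama5, the laminin alpha-5 chain, was at 132, 91.9 and 137 CPM at 10-13 weeks and 424, 378 and 503 CPM at 20 months (log2 change 1.85 ± 0.18 SE, adjusted p = 6.62e-07) and Lama2, the alpha-2 chain of muscle basement membranes, at 395, 340.2 and 394 CPM at 10-13 weeks and 148, 194 and 172 CPM at 20 months (log2 change -1.14 ± 0.15 SE, adjusted p = 2.36e-05). These laminin chains moved in opposite directions with no overlap. Ecm1 and Nov changed by 1.55 and 1.41, Fn1, fibronectin, by 0.73, and Thbs4 by -3.29, while Postn was not called (0.087).

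Of 26 matrix proteases 6 rose and 4 fell, near the shares of all genes (17.9% higher and 18.2% lower). Over proteases and inhibitors together 5 fell, and 3 without replicate 1 of 10-13 weeks or without any one library of 20 months. Mmp2, gelatinase A, rose from 1643 to 2765 CPM (log2 change 0.75 at adjusted p = 0.0122) and its inhibitor Timp2 from 692 to 1171 CPM (log2 change 0.76 at adjusted p = 5.99e-05). Timp1 and Timp3 were not called (0.27 and -0.10). Among plasminogen-linked genes, Serpine2, or protease nexin, was at 21.8, 24.8 and 22.9 CPM at 10-13 weeks and 60.2, 88.5 and 70.3 CPM at 20 months (log2 change 1.66 ± 0.18 SE, adjusted p = 3.08e-06), and the activator Plat rose (log2 change 0.56 at adjusted p = 0.00577). Adamts15 fell from 13.6 to 2.86 CPM (log2 change -2.25 at adjusted p = 9.56e-05).

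The contractile genes of myofibroblasts were mixed, with 7 of 23 higher and 3 lower, or 1 without replicate 3 of 20 months (median 0.19). Myh11, smooth muscle myosin, was at 10.98, 15.4 and 17.9 CPM at 10-13 weeks and 71.0, 42.9 and 55.8 CPM at 20 months (log2 change 1.94 ± 0.23 SE, adjusted p = 8.01e-06). Acta2, the actin of myofibroblasts, was at 2934, 3484 and 3008 CPM at 10-13 weeks and 4888, 4779 and 5206 CPM at 20 months (log2 change 0.66 ± 0.15 SE, adjusted p = 0.00178), and Cald1, caldesmon, at 1517, 1832 and 2009 CPM at 10-13 weeks and 2734, 2956 and 2959 CPM at 20 months (log2 change 0.69 ± 0.14 SE, adjusted p = 0.000797). These were higher in each old library. Tagln (0.22), which overlaps Sidt2, Cnn1 (0.41) and Vim (0.19) were not called. Of smooth muscle and pericyte markers Rgs5 (-3.17), Kcnj8 (-1.05) and Des (-1.51) fell while Myh11 and Lmod1 rose, and the part of such cells was not tested.

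In the TGF-beta superfamily 9 of 42 genes rose and 7 fell, and without replicate 1 of 10-13 weeks 5 rose. Both shares are near those of all genes, 17.9% higher and 18.2% lower, so the list as a whole does not stand out. Of the ligands, Tgfb3 was at 879.9, 1161 and 1467 CPM at 10-13 weeks and 2279, 2267 and 2559.6 CPM at 20 months (log2 change 1.02 ± 0.26 SE, adjusted p = 0.00529), higher in every old library, whereas Tgfb1 (-0.27) and Tgfb2 (0.68) were not called. Bmp6 fell from 86.8 to 49.9 CPM (log2 change -0.80 at adjusted p = 0.00221). No receptor rose, and 3 of 10 fell, namely the type I receptor Acvrl1 (-0.78), the activin receptor Acvr2a (-0.73) and the co-receptor Tgfbr3 (-1.195). Of 13 antagonists 4 rose. The BMP antagonist Nog was at 1.35, 0.963 and 0.834 CPM at 10-13 weeks and 4.18, 6.10 and 4.02 CPM at 20 months (log2 change 2.18 ± 0.44 SE, adjusted p = 0.000937), the decoy receptor Bambi at 11.6, 13.9 and 14.9 CPM at 10-13 weeks and 52.0, 36.0 and 38.2 CPM at 20 months (log2 change 1.64 ± 0.31 SE, adjusted p = 0.000597) and Grem1 changed by 0.99. Bmper, which binds BMPs too, went the other way (-1.65).

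Wnt signalling genes rose in 8 of 33 and fell in 3, with 11 more below the filter, beside 17.9% higher and 18.2% lower of all genes. The ligand Wnt5a was at 5.54, 5.57 and 3.96 CPM at 10-13 weeks and 8.12, 10.7 and 11.3 CPM at 20 months (log2 change 0.999 ± 0.18 SE, adjusted p = 0.000419), while its receptor Ror2 was at 23.98, 27.0 and 19.7 CPM at 10-13 weeks and 11.96, 13.3 and 10.8 CPM at 20 months (log2 change -0.97 ± 0.13 SE, adjusted p = 2.05e-05). The larger changes were in secreted antagonists. Dkk3 was at 193, 234 and 232 CPM at 10-13 weeks and 778, 734 and 1051 CPM at 20 months (log2 change 1.961 ± 0.18 SE, adjusted p = 4.04e-07) and Sfrp4 at 6.22, 10.6 and 3.91 CPM at 10-13 weeks and 46.2, 36.0 and 39.7 CPM at 20 months (log2 change 2.56 ± 0.31 SE, adjusted p = 1.08e-05), both higher in all old libraries, and Sfrp1 fell from 35.3 to 10.9 CPM (log2 change -1.70 at adjusted p = 0.0298). The Wnt target Axin2 was not called (log2 change 1.27).

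In the IGF axis the ligand Igf1 was at 188, 154 and 192 CPM at 10-13 weeks and 91.2, 91.4 and 74.0 CPM at 20 months (log2 change -1.06 ± 0.27 SE, adjusted p = 0.00491), lower in each old library, and its receptor Igf1r was not called (-0.15). The binding proteins split. Igfbp5 was at 60.2, 246 and 105 CPM at 10-13 weeks and 535, 1103 and 416 CPM at 20 months (log2 change 2.32 ± 0.58 SE, adjusted p = 0.00462). Igfbp2 had no count in any 10-13 weeks library and 136 counts over the 3 libraries of 20 months, at least 39.2-fold higher when the young group is set to 3 counts over its libraries. Igfbp4 (-1.34) and Igfbp6 (-0.57) fell, as did Stc2, a stanniocalcin that in human inhibits the protease PAPP-A, which was at 115, 66.1 and 86.6 CPM at 10-13 weeks and 12.4, 21.5 and 8.59 CPM at 20 months (log2 change -2.66 ± 0.34 SE, adjusted p = 1.88e-05).

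Growth factor ligands and receptors went different ways. Of 27 ligands 9 rose and 2 fell, and of 15 receptors 1 rose and 9 fell. The count of higher members over both fell to 6 without replicate 1 of 10-13 weeks or without replicate 2 of 20 months. Pdgfc was at 0.104, 0.321 and 0.208 CPM at 10-13 weeks and 7.19, 3.86 and 7.99 CPM at 20 months (log2 change 4.88 ± 0.56 SE, adjusted p = 4.08e-06), and Pdgfa and Pdgfd changed by 0.91 and 0.67. Their receptors fell, Pdgfra from 216, 182 and 202 CPM to 67.8, 76.2 and 51.6 CPM (log2 change -1.62 ± 0.32 SE, adjusted p = 0.000961) and Pdgfrb by 0.53 on the log2 scale. Both directions held without overlap for Pdgfc and Pdgfra. The receptor kinases Axl (-0.90), Egfr (-0.77), Fgfr1 (-0.54) and Ddr2 (-0.58) fell too, and Met, the receptor of the hepatocyte growth factor Hgf, rose (log2 change 0.99 at adjusted p = 0.043) while Hgf fell (log2 change -0.82 at adjusted p = 0.00123). Ptn, the growth factor pleiotrophin, fell from 91.02, 38.0 and 110.3 CPM to 2.71, 4.15 and 2.12 CPM (log2 change -4.74 ± 0.69 SE, adjusted p = 6.77e-05).

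Few inflammatory signals were called. Of 16 cytokines and receptors 0 rose and 1 fell, the latter being Tslp, at 29.6, 13.3 and 61.9 CPM at 10-13 weeks and 6.201, 6.82 and 6.87 CPM at 20 months (log2 change -2.40 ± 0.61 SE, adjusted p = 0.00537). The cytokines often named in the secretory phenotype of senescent cells were low and not called. Il6 was at 2.33, 1.34 and 1.46 CPM at 10-13 weeks and 3.15, 4.77 and 2.42 CPM at 20 months (log2 change 1.005 ± 0.59 SE, adjusted p = 0.195), apart but close, and Il1b was at 0.0866 to 0.345 CPM on average, below 1 CPM in both groups. Among 16 chemokines 1 rose and 1 fell. Over cytokines, chemokines and complement together 4 rose, and 2 without replicate 2 of 10-13 weeks or replicate 3 of 20 months. Cxcl12, the chemokine that holds blood stem cells in the marrow, was at 331, 396 and 418 CPM at 10-13 weeks and 120.1, 226 and 151 CPM at 20 months (log2 change -1.203 ± 0.37 SE, adjusted p = 0.0171), lower in all old libraries, and Ccl2 was not called (-0.66).

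Complement genes fell in 6 of 18 and rose in 3. C7, a component of the membrane attack complex, was at 542, 328 and 874 CPM at 10-13 weeks and 36.8, 107 and 37.2 CPM at 20 months (log2 change -3.27 ± 0.62 SE, adjusted p = 0.000603), and the protease C1s at 342, 314 and 489 CPM at 10-13 weeks and 117, 130.0 and 104 CPM at 20 months (log2 change -1.71 ± 0.40 SE, adjusted p = 0.00271). The membrane regulators were split, with Cd59, which blocks the attack complex, at 16.9, 12.7 and 26.2 CPM at 10-13 weeks and 42.2, 49.2 and 45.3 CPM at 20 months (log2 change 1.29 ± 0.22 SE, adjusted p = 0.000255) and Cd55, which decays the convertase, lower from 129.8 to 60.2 CPM (log2 change -1.11 at adjusted p = 0.0127). Each of these was free of overlap. Ptx3, a soluble pattern receptor, changed by -2.74.

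Of 29 interferon response genes 22 were not called, 6 were lower and 1 was higher (median -0.42). The share lower is near that of all genes, 18.2%. The number lower was 10 with DESeq2 and 3 without replicate 3 of 10-13 weeks. The one gene higher was not called without replicate 2 of 10-13 weeks. Irf1 was at 21.7, 19.6 and 21.0 CPM at 10-13 weeks and 11.5, 11.01 and 11.7 CPM at 20 months (log2 change -0.87 ± 0.11 SE, adjusted p = 1.65e-05). In antigen presentation 4 of 21 genes rose and 5 fell, near the shares of all genes (17.9% higher and 18.2% lower). The number higher was 2 without replicate 1 of 10-13 weeks and with a minimum count of 50, and the number lower was 3 without replicate 3 of 10-13 weeks or replicate 1 of 20 months and 2 without replicate 3 of 20 months. The class I gene RT1-A1 was at 23.5, 36.7 and 29.9 CPM at 10-13 weeks and 5.86, 2.43 and 3.02 CPM at 20 months (log2 change -2.997 ± 0.35 SE, adjusted p = 8.59e-06), and it overlaps RT1-A2, a near copy that was not called (0.64), so reads may be split between them. B2m, the class I light chain, rose from 825 to 1309 CPM (log2 change 0.67 at adjusted p = 0.0354), a call that stood in 1 of the 6 fits that leave out a library, the one without replicate 3 of 10-13 weeks. The class II genes RT1-Da and Cd74 rose from 0.404 to 2.13 CPM and 2.04 to 7.01 CPM. Class II genes mark macrophages and other leukocytes, whose marker sums are given above, and their part was not tested.

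Immediate early genes, which serum and handling induce within minutes, fell in 11 of 22 and rose in 0 (median -0.81). The count was 5 without replicate 1 of 10-13 weeks. Fos was at 79.2, 15.9 and 8.96 CPM at 10-13 weeks and 2.90, 5.53 and 2.46 CPM at 20 months (log2 change -3.26 ± 0.67 SE, adjusted p = 0.00111) and Egr3 at 19.1, 2.46 and 2.97 CPM at 10-13 weeks and 0.394, 0.858 and 0.302 CPM at 20 months (log2 change -3.98 ± 1.101 SE, adjusted p = 0.00884). Replicate 1 of 10-13 weeks was the highest by far in both genes, and without it the adjusted p of Egr3 was 0.105 (edgeR). Myc, which drives growth, was at 104, 59.8 and 70.4 CPM at 10-13 weeks and 29.6, 26.5 and 35.8 CPM at 20 months (log2 change -1.35 ± 0.19 SE, adjusted p = 4.93e-05), with no overlap. Jun, Jund, Fosl2, Dusp1 and Nr4a2 were not called.

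Receptors and enzymes for vasoactive signals fell in 12 of 29 and rose in 3 (median -0.57). Ace, the enzyme that makes angiotensin II (ENSRNOG00000007467, chromosome 10, 94170789 to 94206535, Rnor_6.0), was at 28.8, 15.5 and 6.199 CPM at 10-13 weeks and 0.443, 0.572 and 1.25 CPM at 20 months (log2 change -4.44 ± 0.60 SE, adjusted p = 2.97e-05). S1pr3, a receptor for sphingosine 1-phosphate, was at 132, 204 and 181 CPM at 10-13 weeks and 34.8, 31.8 and 38.4 CPM at 20 months (log2 change -2.30 ± 0.16 SE, adjusted p = 2.27e-08), and Adora2b, an adenosine receptor, at 5.70, 4.44 and 5.89 CPM at 10-13 weeks and 1.33, 1.57 and 1.25 CPM at 20 months (log2 change -1.95 ± 0.32 SE, adjusted p = 0.000151). All 3 were lower in every old library. The angiotensin receptor Agtr1a was not called (-0.57). The natriuretic peptide receptors moved apart, Npr1, the guanylyl cyclase, falling from 32.4 to 17.3 CPM (log2 change -0.91 at adjusted p = 0.000333) and Npr3, the clearance receptor, rising from 12.9 to 29.4 CPM (log2 change 1.18 at adjusted p = 0.0017). Nos3, which endothelium expresses, fell from 1.32 to 0.186 CPM beside the endothelial markers Cdh5 (-3.82), Vwf (-2.88) and Tie1 (-1.99).

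In prostaglandin synthesis 3 of 12 genes rose and 1 fell, and of 7 receptors 1 rose and 1 fell. The number higher over both was 2 without replicate 1 of 10-13 weeks or of 20 months, and in the fit to the 6 libraries. Ptgis, prostacyclin synthase, was at 195, 179 and 181 CPM at 10-13 weeks and 94.4, 65.2 and 104 CPM at 20 months (log2 change -1.07 ± 0.21 SE, adjusted p = 0.000817) and its receptor Ptgir changed by -1.17, while Ptges, prostaglandin E synthase, was at 1.45, 1.12 and 0.625 CPM at 10-13 weeks and 5.76, 10.6 and 3.84 CPM at 20 months (log2 change 2.65 ± 0.69 SE, adjusted p = 0.00595). Neither synthase overlapped between the ages. The phospholipase Pla2g2a, which acts upstream of all prostanoids, was at 4.46, 3.64 and 14.01 CPM at 10-13 weeks and 72.4, 44.1 and 26.5 CPM at 20 months (log2 change 2.69 ± 0.81 SE, adjusted p = 0.0146), and it was not called without replicate 1 or 2 of 10-13 weeks or replicate 1 of 20 months. Ptgs2 was not called (-1.001). In the clock 1 of 5 activators was called higher, the nuclear receptor Rorb, with 1 count over the young and 46 over the old group (adjusted p = 0.00248). Of 13 repressors and outputs 1 rose, the output factor Dbp (log2 change 0.88 at adjusted p = 0.00614), and 5 fell, among them Per1 (-0.76), Per3 (-0.56) and Bhlhe40 (-0.83), with Arntl (0.09) and Clock (-0.31) not called. The number called lower was 1 without replicate 1 of 10-13 weeks, 3 without replicate 2 and 2 without replicate 3 of 20 months.

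Adhesion genes rose in 10 of 26 and fell in 4 (median 0.36), where 1 or 2 fell when any one library except replicate 3 of 10-13 weeks was left out. The laminin-binding integrin chains Itga7 and Itga6 were at 6.68, 6.26 and 8.91 CPM at 10-13 weeks and 17.1, 20.8 and 24.3 CPM at 20 months and at 7.77, 18.6 and 8.596 CPM at 10-13 weeks and 43.8, 40.7 and 51.6 CPM at 20 months (log2 changes 1.51 ± 0.23 SE and 1.961 ± 0.38 SE, adjusted p = 8.76e-05 and 0.000682). The collagen-binding chains Itga1 (0.73), within which Pelo lies, Itga10 (2.03) and Itga11 (0.99) rose and the fibronectin receptor chains Itga4 (-1.21) and Itga5 (-0.33) fell. Cdh2, N-cadherin, and Cdh11 rose by 0.50 and 0.50.

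Most factors that set fibroblast and cardiac identity were not called, 26 of 34, among them Gata4 (0.0025), Tbx20 (-0.29), Hand2 (0.33) and Twist1 (-0.41). Tcf21, a factor of resident cardiac fibroblasts, was at 38.1, 21.3 and 42.5 CPM at 10-13 weeks and 13.5, 14.4 and 14.3 CPM at 20 months (log2 change -1.27 ± 0.33 SE, adjusted p = 0.00608), and Wt1, of the epicardium and its derivatives, at 16.0, 13.1 and 10.003 CPM at 10-13 weeks and 3.05, 3.58 and 2.33 CPM at 20 months (log2 change -2.12 ± 0.28 SE, adjusted p = 1.65e-05). Both were lower in all old libraries. Of 6 Hox genes above the filter 4 rose. The number higher was 7 without a filter and 1 with a minimum count of 50. It depended on the filter and does not describe the Hox genes as a set. Hoxd9 was at 0.259, 0.803 and 1.04 CPM at 10-13 weeks and 2.36, 3.77 and 2.50 CPM at 20 months (log2 change 2.03 ± 0.57 SE, adjusted p = 0.00956) and Hoxd8 at 0.622, 0.856 and 1.04 CPM at 10-13 weeks and 1.82, 2.10 and 1.64 CPM at 20 months (log2 change 1.14 ± 0.28 SE, adjusted p = 0.0035), and 17 further Hox genes in the table did not pass the filter. Of 15 Notch and Hedgehog genes 4 rose and 2 fell, beside 17.9% higher and 18.2% lower of all genes. The number higher was 1 without replicate 1 or 2 of 10-13 weeks or replicate 1 of 20 months, and 2 without replicate 3 of 20 months. The Notch target Hey2 rose from 2.13 to 7.80 CPM (log2 change 1.87 at adjusted p = 0.00175), and the receptor Notch2 (-0.61) and Gli3, a transcription factor of Hedgehog signalling (-0.90), fell.

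Several of the largest changes lay outside these lists. Eps8l1, a relative of the actin regulator Eps8, was at 0.104, 0.0535 and 0.104 CPM at 10-13 weeks and 5.32, 2.34 and 6.56 CPM at 20 months (log2 change 5.67 ± 0.87 SE, adjusted p = 9.08e-05). Trh, the precursor of thyrotropin-releasing hormone, was at 0.622, 1.34 and 1.67 CPM at 10-13 weeks and 15.3, 41.0 and 26.9 CPM at 20 months (log2 change 4.51 ± 0.52 SE, adjusted p = 6.36e-06). Npnt, the integrin ligand nephronectin, was at 0.0518, 0.535 and 0 CPM at 10-13 weeks and 3.20, 4.15 and 5.92 CPM at 20 months (log2 change 4.48 ± 0.83 SE, adjusted p = 0.00048). All 3 were near 0 or low in the young libraries and higher in each old one. Actn2, the alpha-actinin of sarcomeres, was at 0.725, 0.214 and 0.781 CPM at 10-13 weeks and 7.09, 10.4 and 10.7 CPM at 20 months (log2 change 4.02 ± 0.30 SE, adjusted p = 5.06e-08) beside the 4 cardiomyocyte genes at 0 named above. It is itself on the cardiomyocyte list, of which 3 of 17 rose and 2 fell. The others higher were Pln, the regulator phospholamban, from 0.370 to 1.82 CPM, and Nppb, the natriuretic peptide BNP, from 4.86 to 22.6 CPM, and those lower were Tnnt2 (-1.23) and Atp2a2 (-0.24). Pmp2, a myelin protein of Schwann cells, was at 0.104, 0.482 and 0 CPM at 10-13 weeks and 4.04, 3.19 and 4.79 CPM at 20 months (log2 change 4.33 ± 0.66 SE, adjusted p = 0.000166), beside the rise of the Schwann cell markers Mbp (1.31) and S100b (3.13) and with Sox10, which defines these cells, at 7 counts over the young and 0 over the old group. The others of the 12 genes named for the size of their increase were Slc35f1 (4.59), Dcdc2 (4.03) and Rab3b (3.70). Among decreases Dpt, dermatopontin, which binds decorin in the matrix, was at 62.9, 27.7 and 74.9 CPM at 10-13 weeks and 4.87, 5.44 and 2.98 CPM at 20 months (log2 change -3.64 ± 0.46 SE, adjusted p = 1.84e-05), and Igsf10 at 36.2, 19.8 and 23.8 CPM at 10-13 weeks and 3.89, 2.002 and 2.46 CPM at 20 months (log2 change -3.26 ± 0.41 SE, adjusted p = 1.46e-05). Sv2c (-3.80), the mitotic kinesin Kif14 (-3.38), the ATP receptor P2rx5 (-3.30), and the small nucleolar RNA SNORA16 (-3.82) completed the 12 named for the size of their decrease with Ptn, Ace, Egr3, Thbs4, C7 and Fos.

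The younger ages place these levels on a longer scale, in 5.5 mM glucose throughout. Of the genes called higher, 1588 stood above all 9 younger libraries at 20 months, and of those called lower 1501 stood below all 9. Over all genes tested, 13.8% stood above and 12.5% below. Without 1 of the 3-4 weeks libraries, replicate 1, the numbers were 1708 and 1732. The shares over all genes without that library are not given here, so the counts without it have no background beside them. In the cell cycle 65 of 81 genes were below all 9 younger libraries, or 77 without that library, and in the lysosome 25 of 53 were above, or 30.

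Cdkn2a averaged 5.19 CPM in cells of 0-3 days, 8.24 CPM in those of 3-4 weeks, 6.37 CPM in those of 10-13 weeks and 26.5 CPM in the oldest. Ctsd averaged 984, 1147, 905 and 1669 CPM and Fth1 744, 694, 527 and 1731 CPM in the same order. For these genes each old library stood above all 9 younger ones. Spp1 took another course, with 202, 67.3, 39.2 and 1258 CPM, lowest at 10-13 weeks. C7 averaged 224, 489.9, 581 and 60.3 CPM and Dpt 16.4, 65.2, 55.2 and 4.43 CPM, so both were higher at 3-4 and 10-13 weeks than at either end.

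**Figure D4:**
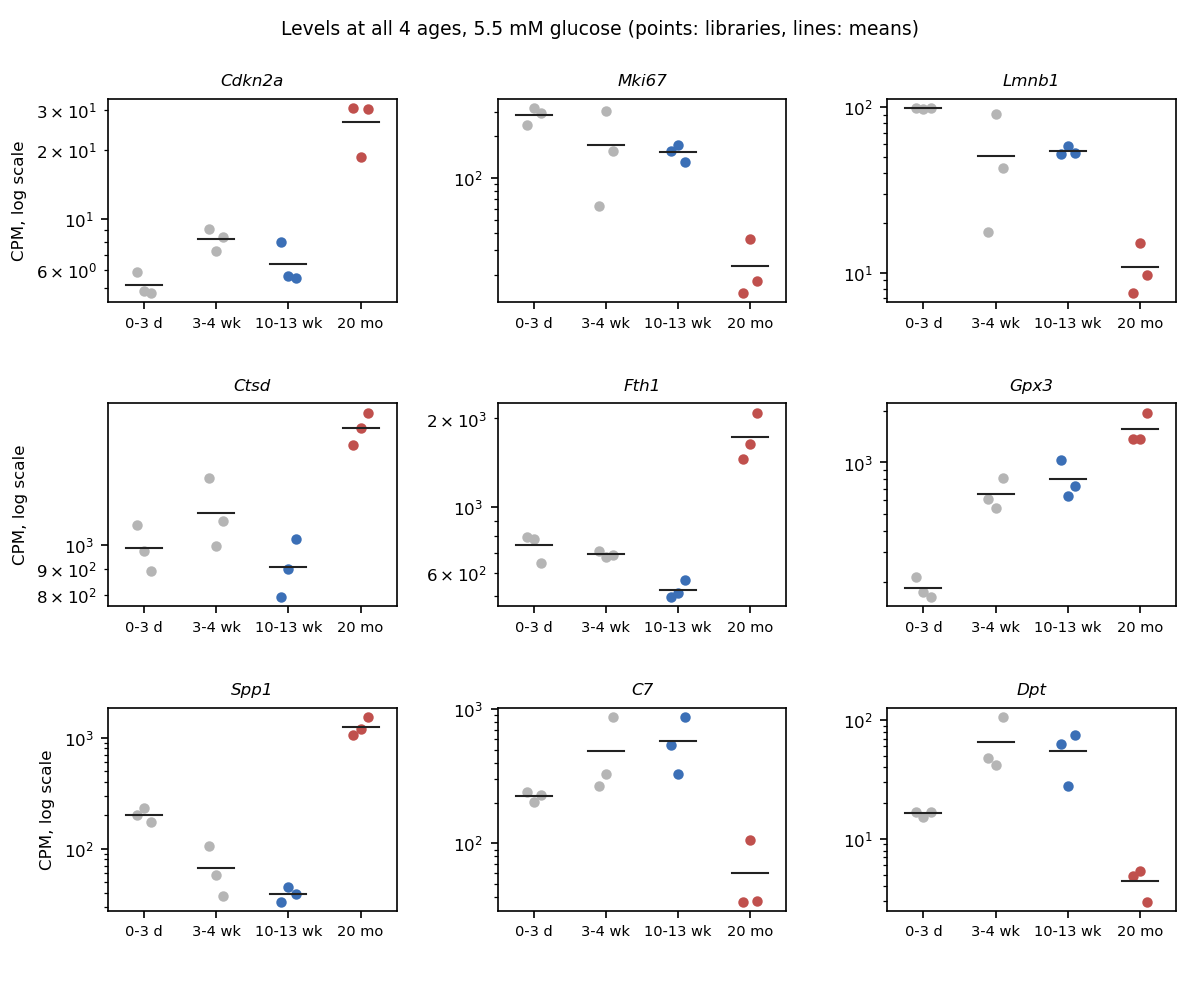
CPM on a log axis (y) of 9 genes in the 3 libraries of each of 4 ages (x) in 5.5 mM glucose, points being libraries and lines their means, with 10-13 weeks in blue, 20 months in red and the younger ages in grey. The red points of Cdkn2a, Ctsd, Fth1, Gpx3 and Spp1 lie above all others, and those of Mki67, Lmnb1, C7 and Dpt below all others.

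The same ages were compared in 33 mM glucose, in 6 other libraries. Libraries of one age with the same number deviated together from their group means (correlations over genes of 0.368 to 0.494), so these are not treated as an independent repeat. There 5123 genes were called, 37.1% of those tested. Of the 4985 genes called in 5.5 mM glucose 3971 (79.7%) were also called in the same direction in 33 mM, which is 77.5% of the calls there. The test of the difference between the age effects called 0 genes in edgeR, with 247 at an unadjusted p under 0.05, and 0 in DESeq2, with 261. The difference was therefore also tested with a block for each such same-numbered pair in the 12 libraries, a fit chosen after the data were seen. It called 9 of 13213 genes (0.0681%), with 1283 at an unadjusted p under 0.05. Those 9 held 4 of the 21 sterol synthesis genes, Dhcr7, Cyp51, Hmgcs1 and Idi1, and Fasn, the fatty acid synthase. Leaving out 1 pair gave 0 calls without replicate 1 of either age, 1 without replicate 2 of 20 months, and 20 to 52 without the others. In 33 mM glucose 76 of 81 cell cycle genes were lower and 40 of 53 lysosome genes higher. In sterol synthesis the counts differed, with 3 of 21 lower in 33 mM against 14 in 5.5 mM and medians of -0.18 and -0.58, and no sterol gene was called in the test without the block. In the fit with the block 16 of the 21 were at an unadjusted p under 0.05, and 16 to 18 were with any 1 pair left out. Hmgcs1 changed by -0.20 in 33 mM and by -0.66 in 5.5 mM glucose, a difference of 0.46 ± 0.27 SE (not called without the block, adjusted p = 0.0355 with it). Dhcr7, the last reductase before cholesterol, changed by -0.085 in 33 mM and by -0.74 in 5.5 mM glucose (adjusted p = 0.0228 with the block). Cdkn2a changed by 2.15 and 2.06, Cdc20 by -2.76 and -2.93, and Ctsd by 0.86 and 0.88.

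**Figure D5:**
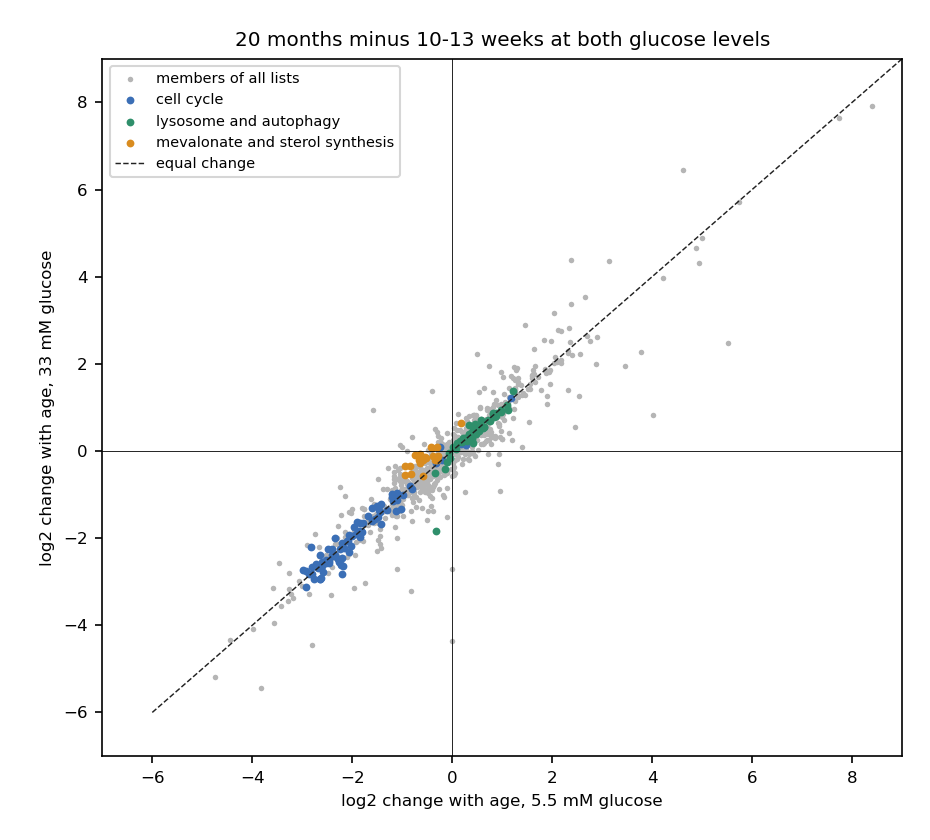
Log2 change from 10-13 weeks to 20 months in 5.5 mM (x axis) against 33 mM glucose (y axis) for every tested list member (points), with cell cycle genes in blue, lysosome genes in green and sterol synthesis genes in orange. Blue and green points lie along the dashed line of equal change, and all 21 orange points lie above it.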

How the data were processed

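RNA of primary rat cardiac fibroblasts was sequenced in 24 libraries, 3 for each of 4 ages and 2 glucose levels. The deposited table gives whole-number read counts per gene and FPKM values that the authors computed. The submitters' processing notes name HISAT2 2.0.4, StringTie 1.3.0, edgeR and the build Rnor_6.0 without a role, and whether counting used strand is not given in the sources used here.

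Genes were kept by edgeR's filterByExpr (minimum count 10, minimum total 15). Library sizes were scaled by TMM, and the quasi-likelihood test of edgeR 4.0.16 (robust, R 4.3.3, limma 3.58.1) was fitted to all 24 libraries with 1 mean per group. P-values were adjusted by Benjamini-Hochberg over 13806 genes, and a gene was called under 0.05. Levels are CPM, with marker sums on unscaled totals, and SE is the log2 change divided by the root of F. FPKM, as deposited, served for levels between genes. Intervals of counting error are not given, since replicate spread is. Scripts were tested on simulated data. Summaries and figures used Python 3.11.15, pandas 2.3.3, SciPy 1.17.1 and matplotlib 3.10.9.

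Members and lists were chosen with earlier results of these data known. The text names the 12 strongest called changes each way, among genes with a gene name, a mean log2 CPM of at least 1 and ages that do not overlap, and list members by role. Values per library are given for those, for the 5 members that rank first by adjusted p in each subgroup, and for genes fixed with the lists. Alternatives were DESeq2 1.42.0 with its size factors, other filters, fits to 6 or 12 libraries, a replicate block, for the difference between glucose levels a block for each pair of libraries of one age with the same number (chosen after seeing the data), and leaving out each library. Some members counted in the lists are not reported here by name.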

Additional observations from a re-analysis of the deposited data

How the results depend on the processing

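With size factors from DESeq2 in edgeR 4993 genes were called in 5.5 mM glucose, without a filter 4577, with a minimum count of 50 4735, in a fit to the 6 libraries 4421, in a fit to the 12 libraries of both ages 4885 and with DESeq2 5151. Leaving out 1 library gave 3781 to 4527. Each of these counts is within 1.5 times 4985. Age and replicate numbers do not pair the samples: same-numbered libraries of the 2 ages correlated at -0.013, 0.017 and -0.152 in their deviations, and the replicate block gave 5195 calls, 2583 higher and 2612 lower.

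The macrophage marker sum, higher by 11.8 CPM at 20 months, ranged from -23.4 to 36.7 CPM when 1 library was left out, and was -0.39 CPM without replicate 1 of 10-13 weeks and -23.4 CPM without replicate 1 of 20 months, so its direction rests on single libraries. Abca1, not called, had log2 changes of -0.23 to 0.14 when 1 library was left out, 0.14 without replicate 1 of 10-13 weeks and 0.068 without replicate 3 of 20 months. The change of Fos had an adjusted p of 0.0622 in the 6-library edgeR fit, and that of Egr3 of 0.105 without replicate 1 of 10-13 weeks. The 12-library fit called 5 nuclear respiratory genes higher (9 in the report) and 3 clock genes lower (5), and the 6-library fit called 6 immediate early genes lower (11) and 2 unfolded protein response genes lower (4). Without a filter 7 Hox genes were higher and with the minimum count of 50 there was 1 (4), and 3 cartilage and bone genes were lower with either (5). The cause of these shifts was not tested. Of 262 called genes named in the report 216 were called in each fit that left out 1 of the 6 libraries, and none changed sign. The other 46 lost the call at least once. Acly, B2m, Kcnj8 and Sidt2 lost it without any of 5 libraries, Adgre1, Cdkn1b, Col6a1, Grem1, Loxl4, Met, Pdgfd, Sfrp1 and Sox5 without any of 4, and Atf4, Atr, Cd55, Idi1, Igfbp4, Itga4, Itga5, Lox, Mpeg1, Per3, Pla2g2a and Runx1 without any of 3. Alpl, Atp2a2, Cxcl12, Hmgcs1, Igfbp6, Itga11, Mcoln1, Mmp2, Nos3, Nppb and Nrf1 lost it without either of 2, and Efemp1, Egr3, Hoxd9, Itga1, Per1, Pfkm, Plat, Rgs5, Sqstm1 and Vwf without 1.

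The difference of the age effects between glucose levels had 0 calls in every fit without the block for same-numbered pairs and 9 in the fit with it, which was chosen after seeing the data. The replicate block over all 24 libraries, which pairs numbers across ages, gave 0 calls.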
